A study of Mus musculus with 4 samples.

Results

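Collagen chain genes were followed across the cell types of the mouse aorta. Every gene whose symbol has the form Col, a type number, the letter a and a chain number was taken, which gave 44 of the 27998 genes counted. Values were read in 4 single-cell libraries from C57BL/6 mice, in which each unique molecular identifier (UMI) marks the 3′ end of 1 captured transcript. Libraries a and b are the intima of the descending aorta of aged mice, with 6 mice pooled in each. The other intimal library is the aortic arch of young mice, with 8 mice pooled, and the remaining library is the adventitia of aged mice. The labels name no transgene, deletion or treatment in any group, ages come from the sample titles alone, and sex is not given. Intimal cells were loosened with trypsin and scraped from the opened vessel after the adventitia was taken off. The labels repeat that protocol for the adventitial library and give no number of mice for it. The arch and descending libraries differ in both region and age, which cannot be told apart. With 1 arch and 1 adventitial library, the p-values rest on the spread between the 2 descending libraries and, for the most part, between genes.

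Collagens are triple helices of 3 chains, and each chain has its own gene. Fibrillar collagens (types I, III and V among them) build the tension-bearing fibrils of the vessel wall, fibril-associated collagens (XII, XIV, XVI) sit on fibril surfaces, and type VI forms beaded filaments around cells. Type IV networks, with collagens XV and XVIII, belong to basement membranes or their zone. Type VIII forms short-chain networks in the vessel wall, and XIII, XXIII and a few others span the cell membrane. In arteries, fibroblasts and smooth muscle are known for fibrillar collagen and endothelium for basement membrane collagen.

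The 6 type IV chain genes stand as 3 head-to-head pairs, each read outwards from a shared start region. On GRCm38, Col4a1 (chr8:11198423-11312826, minus strand) and Col4a2 (chr8:11312805-11449287, plus strand) overlap by 22 bases at their starts. Col4a4 (chr1:82448423-82586849, minus strand) and Col4a3 (chr1:82586921-82722059, plus strand) lie 71 bases apart, and Col4a6 (chrX:141165403-141474076, minus strand) and Col4a5 (chrX:141475385-141689234, plus strand) lie 1308 bases apart. The windows from 250 bases before to 50 after the start are shown because the levels of paired genes are compared below. They come from RefSeq on GRCm38.p6, 5′ to 3′ on the strand of the named gene, and capitals mark GGGCGG (the GC box) and CCAAT on either strand (CCGCCC and ATTGG on the other). The first covers chr8:11312777-11313076 on the minus strand and holds the start of Col4a2, the second chr1:82586800-82587099 on the minus strand, the third chrX:141475169-141475468 on the plus strand and the fourth chrX:141474027-141474326 on the minus strand.
Col4a1: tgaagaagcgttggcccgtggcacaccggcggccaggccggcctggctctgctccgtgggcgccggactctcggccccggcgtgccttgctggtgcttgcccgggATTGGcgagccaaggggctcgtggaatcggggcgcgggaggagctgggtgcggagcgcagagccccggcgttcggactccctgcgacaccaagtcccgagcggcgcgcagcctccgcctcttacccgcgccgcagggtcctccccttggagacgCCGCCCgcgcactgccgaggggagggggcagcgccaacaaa
Col4a4: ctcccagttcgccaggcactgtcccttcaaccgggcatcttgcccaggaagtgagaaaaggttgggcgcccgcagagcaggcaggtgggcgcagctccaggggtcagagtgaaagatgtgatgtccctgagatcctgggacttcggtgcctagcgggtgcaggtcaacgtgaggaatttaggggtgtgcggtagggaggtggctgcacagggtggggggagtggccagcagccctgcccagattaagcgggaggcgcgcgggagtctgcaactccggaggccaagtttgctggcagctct
Col4a5: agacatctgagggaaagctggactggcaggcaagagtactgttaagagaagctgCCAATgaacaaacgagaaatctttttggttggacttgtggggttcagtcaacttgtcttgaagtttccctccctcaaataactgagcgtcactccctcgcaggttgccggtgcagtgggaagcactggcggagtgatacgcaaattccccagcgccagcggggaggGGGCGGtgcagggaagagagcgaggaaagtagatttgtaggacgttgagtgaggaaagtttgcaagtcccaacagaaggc
Col4a6: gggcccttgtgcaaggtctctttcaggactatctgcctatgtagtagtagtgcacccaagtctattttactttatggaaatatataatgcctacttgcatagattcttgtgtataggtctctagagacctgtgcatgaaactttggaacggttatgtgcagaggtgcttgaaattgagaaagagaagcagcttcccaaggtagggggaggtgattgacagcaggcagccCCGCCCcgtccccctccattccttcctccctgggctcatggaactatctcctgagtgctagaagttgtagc
The Col4a1 window held 1 GGGCGG and 1 CCAAT, the Col4a4 window held neither, the Col4a5 window held 1 of each and the Col4a6 window 1 GGGCGG and no CCAAT. None of these windows held TATAAA on either strand. Over all 32851 promoter windows of that length, 35.7% held GGGCGG, 37.4% held CCAAT and 13.6% held TATAAA. Of the 44 collagen genes, 35 had a promoter entry.

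After filters on genes per cell, mitochondrial share and doublets, 1986, 2095, 2122 and 7850 cells remained (descending a, descending b, arch and adventitia, the order used throughout), with median depths of 5198.5, 4887, 6951.5 and 2473 UMIs. Cells were clustered with the collagen chain genes left out, so that no class was built from the chain levels described here. Endothelial cells numbered 1463, 1289, 1249 and 303, and fibroblasts 333, 646, 435 and 1430. Mesothelial cells (44 and 168) and smooth muscle cells (17 and 13) were present in number only in the arch and the adventitia, and pericytes (64) and Schwann cells (25) only in the adventitia. Libraries shared between 4 and 31 barcodes per pair. A level is a gene's summed UMIs in a class of a library over all UMIs of that class there, on the usual CPM scale, and its intervals cover counting error only. Levels are not scaled by gene length, so they compare the same gene between cells, not different genes.

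Of the 44 genes, Col9a2 and Col10a1 had no UMI in any analysed cell, 10 had 1 to 10 UMIs, 32 had more than 10 and 17 had over 1000. The summed collagen level was lowest in endothelium and highest in fibroblasts among the endothelial, fibroblast, mesothelial and smooth muscle classes. Endothelial cells held 657, 659.8, 1341 and 1355 collagen CPM. Fibroblasts held 4359, 4437, 9220.4 and 5641. The arch level was about 2 times the descending level in both classes. Mesothelial cells held 3224 in the arch and 2477 in the adventitia, smooth muscle cells 3525 and 3198, pericytes 2406 and Schwann cells 2585. Collagen UMIs were also counted in cells not known for making collagen. Macrophages held 149, 165, 364 and 126, and red cells 95, 47, 312 and 97.7. The T-cell-like cells of descending a held 2652, of which 186 of 188 UMIs came from 3 of the 13 cells, and without those 3 cells that class held 2 collagen UMIs.

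**Figure D1:**
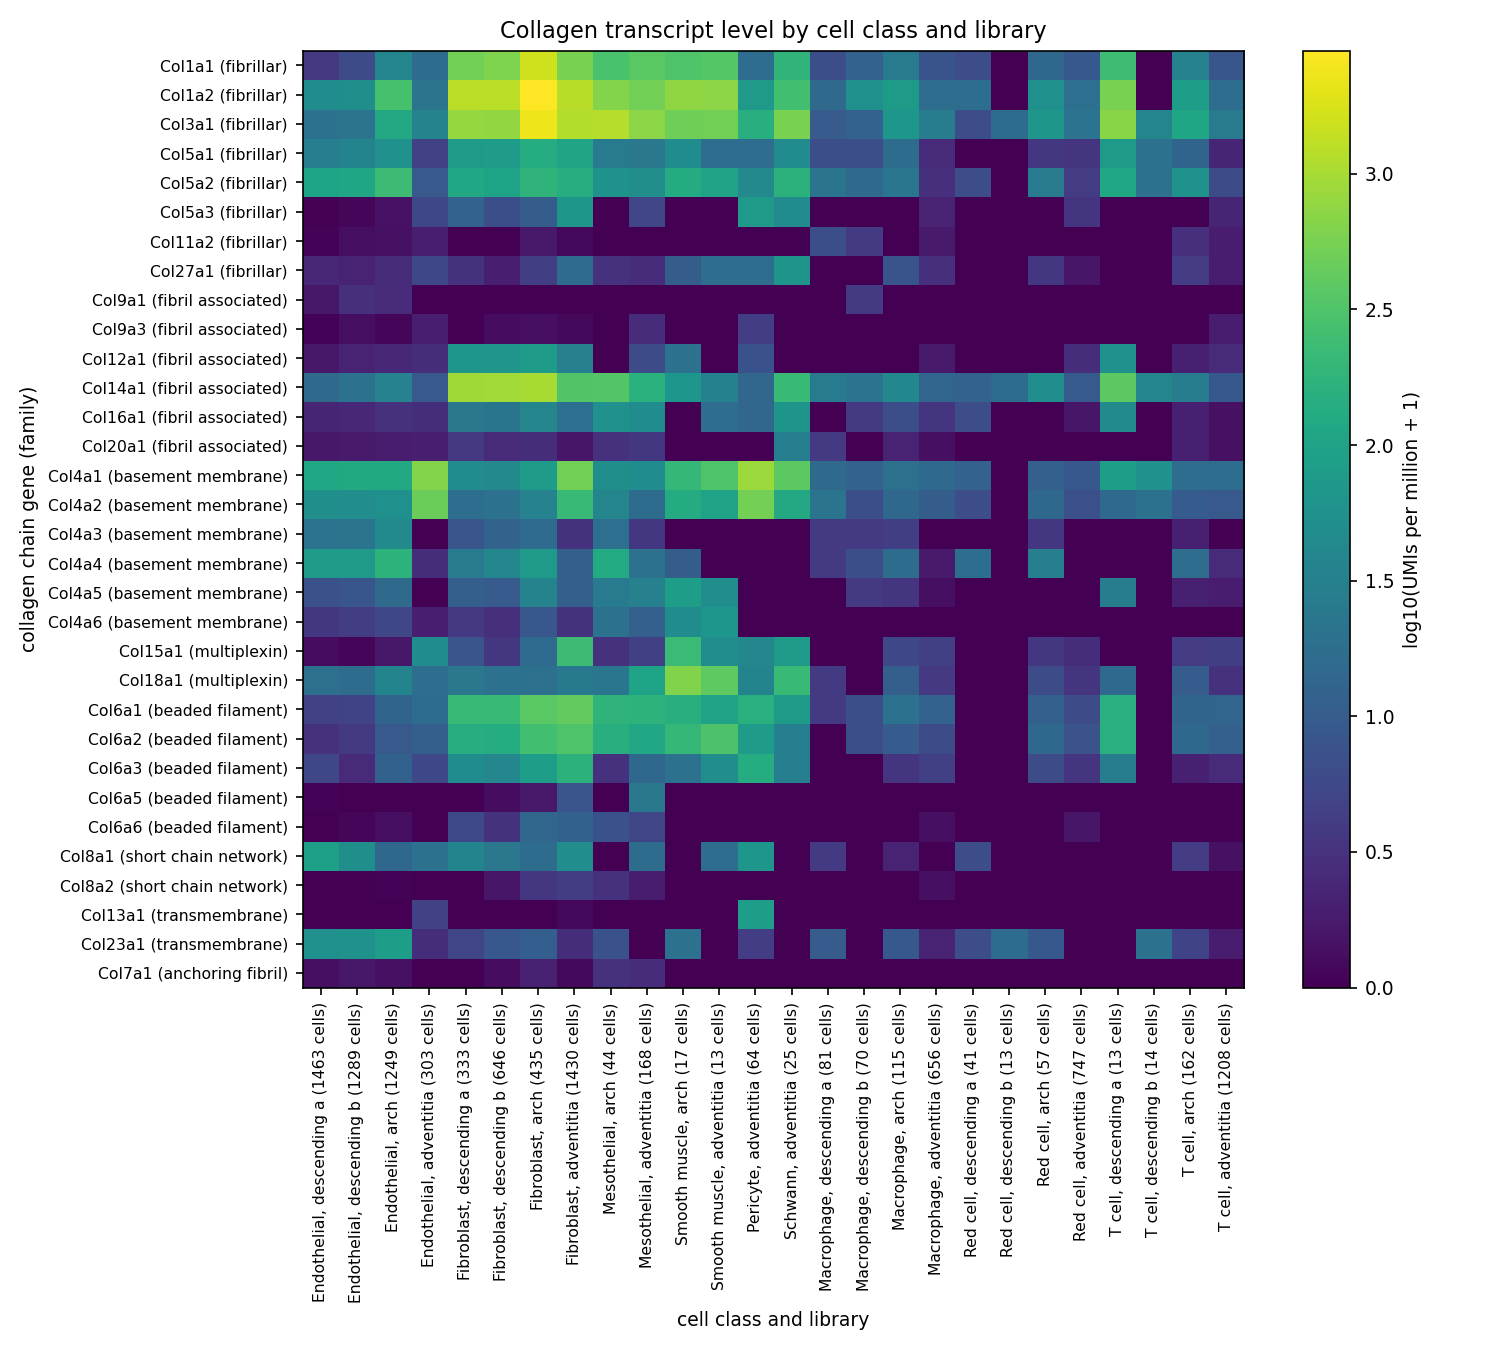
Level of the 32 collagen genes with more than 10 UMIs (rows, with family) in each cell class and library with at least 10 cells (columns, with cell numbers), as log10 of CPM plus 1. Col1a1, Col1a2, Col3a1 and Col14a1 are brightest in fibroblasts, Col4a1 and Col4a2 in adventitial endothelium, adventitial fibroblasts and pericytes, and Col23a1 in intimal endothelium.

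The class with the highest mean level over its libraries was endothelium for 11 of the 42 detected genes, fibroblasts for 11, pericytes for 8, Schwann cells for 5, smooth muscle for 5 and mesothelium for 2. Several of these places rest on few UMIs, such as Col11a1 in Schwann cells, which had 1 UMI in all. The means cover unlike libraries, with pericytes and Schwann cells from the adventitia alone and smooth muscle and mesothelium from the arch and adventitia. The comparisons below used edgeR's quasi-likelihood test on summed counts with Benjamini-Hochberg adjustment over all genes tested, at an adjusted p of 0.05. Across the 7 comparisons 26 collagen genes had enough UMIs to be tested. The 18 others (Col2a1, Col6a4, Col7a1, Col8a2, Col9a2, Col9a3, Col10a1, Col11a1, Col11a2, Col13a1, Col17a1, Col19a1, Col20a1, Col22a1, Col24a1, Col25a1, Col26a1, Col28a1) had at most 58 UMIs each.

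Fibroblasts and endothelium of the same 3 intimal libraries were compared first, with the library as a block. Fibroblasts carried far more fibrillar, fibril-associated and type VI collagen, and endothelium more of 4 type IV chains, of Col8a1 and of Col23a1. Of 24 collagen genes tested, 14 were higher in fibroblasts and 6 lower, where 26.1% of all genes were higher and 26.2% lower. The median log2 fold change was 2.51 over the collagen genes and -0.03 over all genes tested. By family, 5 of 7 fibrillar, 3 of 3 fibril-associated and 4 of 4 type VI genes were higher in fibroblasts, and none of these was lower. Of 6 type IV genes, 1 was higher and 4 were lower. DESeq2 called 14 higher and 5 lower.

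Col1a1 and Col1a2 encode the 2 chains of type I collagen, the main fibrillar collagen of arteries. Col1a1 stood at 519.6, 618 and 1614 CPM in intimal fibroblasts and at 2.78, 5.09 and 37.4 in endothelium. Every fibroblast value of Col1a1 lay above every endothelial one (log2 fold change 6.57 ± 0.37 SE, edgeR adjusted p = 1.23e-06). Col1a2 stood at 1239, 1258 and 2842 in fibroblasts and at 45, 51.6 and 277 in endothelium, again without overlap (4.40 ± 0.28, edgeR adjusted p = 2.36e-06). Col3a1, whose product co-assembles with type I in distensible vessels, stood at 802, 780.0 and 2291 in fibroblasts and at 19.2, 20 and 121 in endothelium (5.10 ± 0.24). The type V genes, whose products start fibrils, behaved unequally. Col5a1 was higher in fibroblasts (75.7, 79.7 and 138 against 29, 35.1 and 55.6, log2 fold change 1.45 ± 0.10). Col5a2 stood at 114, 100.3 and 173 in fibroblasts and at 100, 110.3 and 232 in endothelium, and the groups overlapped (0.03 ± 0.13, edgeR adjusted p = 0.88).

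The fibril-associated genes had large differences. Col14a1 stood at 924, 947 and 1013 CPM in fibroblasts and at 14.7, 18.2 and 32.9 in endothelium (log2 fold change 5.68 ± 0.22). Col12a1 stood at 63.3, 62.6 and 77.2 against 0.672, 1.13 and 1.48 (6.08 ± 0.18), and Col16a1 at 22.7, 21.2 and 36 against 1.25, 1.47 and 2.14 (4.18 ± 0.20). In none of the 3 genes did the classes overlap. All 3 products sit on or near fibrils.

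Of the type VI genes, whose products form beaded filaments, Col6a1 stood at 211, 211 and 368 CPM in fibroblasts and 3.65, 4.07 and 12 in endothelium (log2 fold change 5.55 ± 0.19). Col6a2 stood at 142, 138 and 251 against 2.11, 2.83 and 8.33 (5.53 ± 0.20), and Col6a3 at 47, 38.9 and 84.9 against 4.42, 1.7 and 10.7 (3.57 ± 0.24). The classes did not overlap in these genes. Col6a6 stood at 4.87, 2.21 and 12.9 in fibroblasts against 0, 0.113 and 0.33 (5.47 ± 0.55), Col5a3 at 11.4, 5.69 and 9.56 against 0, 0.113 and 0.495 (5.40 ± 0.58) and Col15a1 at 7.03, 2.53 and 15.1 against 0.288, 0.113 and 0.66 (4.61 ± 0.39). These last 3 genes were also higher in fibroblasts, though low in both classes.

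The genes higher in endothelium had log2 fold changes between -0.72 and -1.09, with 1 exception. Col4a1 and Col4a2 encode the chains of the common basement membrane network. Col4a1 stood at 116, 125 and 126 CPM in endothelium and 44.9, 41.1 and 76.5 in fibroblasts (log2 fold change -1.05 ± 0.16), and Col4a2 at 50.8, 47.6 and 53.8 against 16.8, 18.3 and 33.5 (-1.0 ± 0.17). Neither pair of groups overlapped. Col4a3 and Col4a4, chains known best from the glomerular basement membrane, followed the same direction. Col4a4 stood at 76.7, 73.3 and 172 in endothelium against 26.5, 38 and 72.4 in fibroblasts (-1.06 ± 0.13), and Col4a3 at 19.8, 20 and 42.8 against 7.03, 11.4 and 15.1 (-1.09 ± 0.19). Each endothelial value of both genes lay above each fibroblast value. The X-linked chains did not follow. Col4a5 stood at 10.3, 8.86 and 34.2 in fibroblasts and 6.15, 7.47 and 14.5 in endothelium, higher in fibroblasts in each library (1.0 ± 0.21), and Col4a6 missed the threshold (0.34 ± 0.38). Col23a1, a transmembrane collagen, was the exception in size, at 53.3, 57.5 and 82 in endothelium and 4.33, 7.59 and 9.93 in fibroblasts (-2.94 ± 0.16, edgeR adjusted p = 1e-06). Col8a1, a short-chain collagen of the vessel wall, stood at 87.1, 52.1 and 13.2 in endothelium and 35.7, 22.1 and 15.8 in fibroblasts, so the arch pair ran the other way (-0.72 ± 0.25, edgeR adjusted p = 0.0383). Without the library block, 13 collagen genes were higher and 3 lower, and with the adventitia added 12 and 3. Col4a3 was among the genes lost in both fits. Single-gene values under these settings were kept for at most the 15 largest fold changes. The fate of Col4a1, Col4a2, Col4a4 and Col8a1 there is therefore not given.

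**Figure D2:**
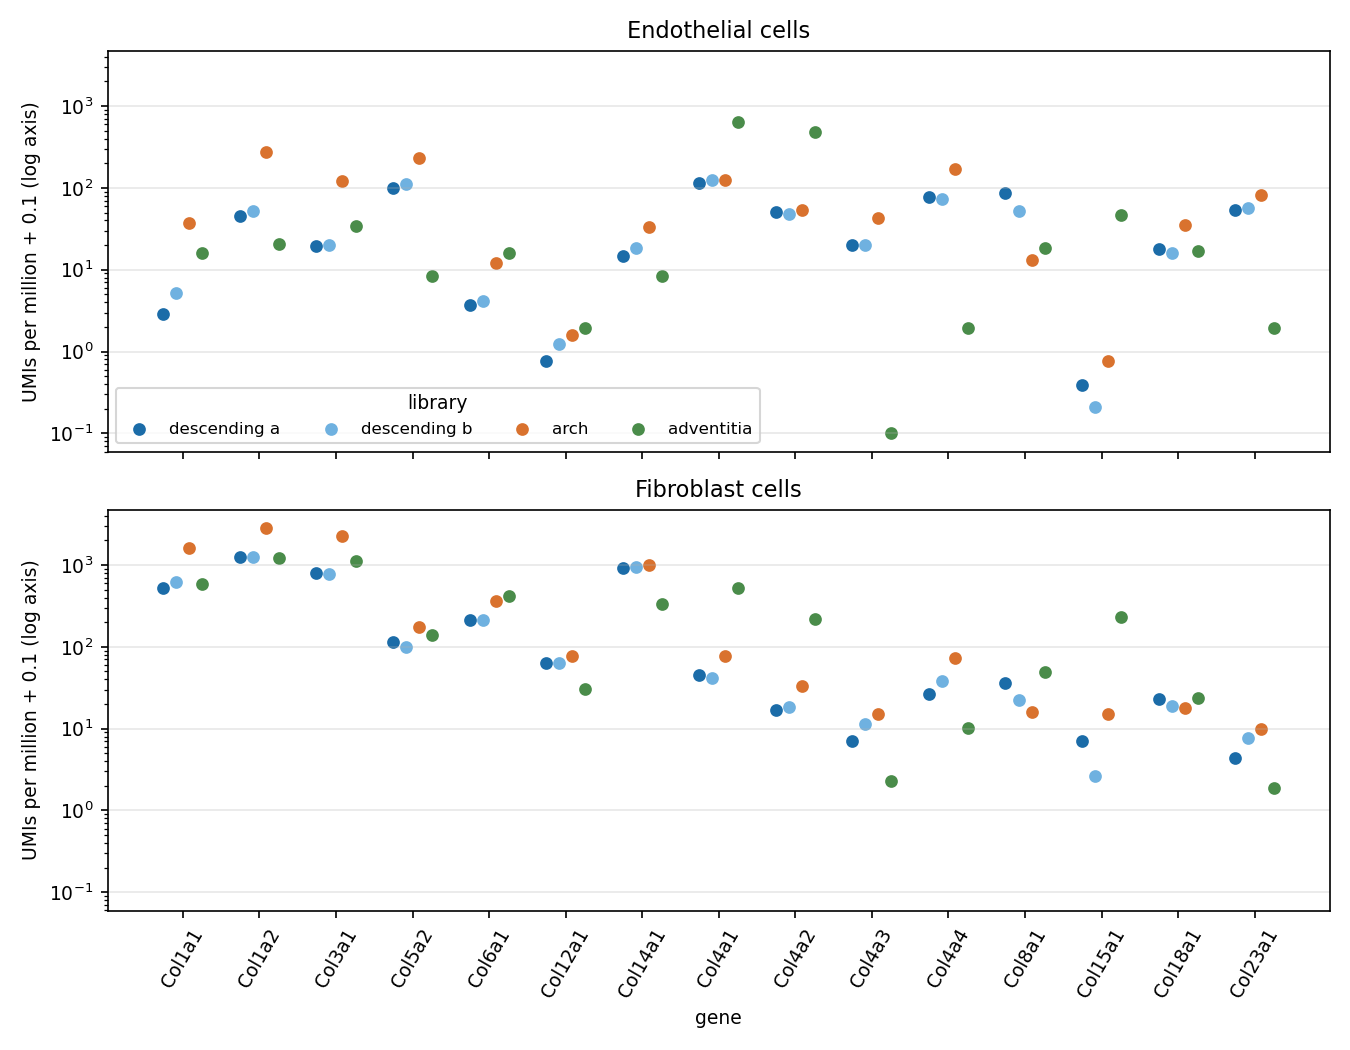
Levels of 15 collagen genes (CPM plus 0.1, log axis) in endothelial cells (upper panel) and fibroblasts (lower panel), 1 point per library. The arch points lie above both descending points for Col1a1, Col1a2 and Col3a1 in both classes, and the adventitial points stand apart for Col4a1, Col4a2 and Col15a1 (high) and for Col4a3 and Col4a4 (low).

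A fixed list of 44 genes that make, fold, cut, cross-link or bind collagen was read beside the chains. Of 36 tested, 21 were higher in fibroblasts and 7 lower, where 26.1% and 26.2% of all genes were. The median log2 fold change over the list was 0.82. Only the chain genes were left out of the clustering, so genes of this list could shape the classes. Mmp2 (1.34) and Pcolce were also on the fibroblast marker list, so the 21 are in part built into the class. Serpinh1, the collagen chaperone, was higher in fibroblasts (2.27), as were Pcolce (4.29) and Bmp1 (3.11), which serve the cutting of the procollagen C end, and Loxl1 (4.78) and Loxl2 (5.19), which cross-link matrix. Lox, the best known cross-linking oxidase, was lower in fibroblasts than in endothelium (-1.14, edgeR adjusted p = 3.75e-05). The prolyl hydroxylase P3h2 (-4.13) and the collagen receptor genes Itga1 (-3.30) and Ddr1 (-1.42) were lower too, whereas the receptor genes Itga11 (5.98) and Ddr2 (4.65) were higher.

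The arch and descending endothelium were compared next, which sets young arch against aged descending cells. More collagen genes were higher in the arch than lower, led by Col1a1, Col3a1 and Col1a2, while Col8a1 was lower and Col4a1 and Col4a2 missed the threshold. Of 23 tested, 14 were higher and 1 lower, where 6.08% of all genes were higher and 4.93% lower. The median log2 fold change was 1.12 over the collagen genes and -0.01 over all genes. DESeq2 called 5 higher and 1 lower. Of 37 collagen-handling genes tested, 13 were higher in the arch, among them Loxl1 (1.46), Pcolce (1.25) and Serpinh1 (0.75), and Itga1 was lower (-0.74).

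Col1a2 in endothelium stood at 45 and 51.6 CPM in the descending libraries and at 277 in the arch (log2 fold change 2.59 ± 0.15, edgeR adjusted p = 2.81e-12). Col3a1 stood at 19.2 and 20 against 121 (2.69 ± 0.15, edgeR adjusted p = 2.07e-12), and Col1a1 at 2.78 and 5.09 against 37.4 (3.33 ± 0.24, edgeR adjusted p = 1.24e-10). The arch value lay above both descending values in all 3 genes. These transcripts were also seen in cells that should lack them. In macrophages Col3a1 stood at 8.76, 11.4 and 64.5 in descending a, descending b and the arch, and Col1a2 at 14.6, 54 and 75.8. In lymphocytes and red cells Col1a2 stood at 171, 18.3 and 74, Col3a1 at 194, 30.4 and 93.4, and Col1a1 at 69.9, 6.09 and 27.3. The descending a values there rest on few cells, with 44 UMIs of Col1a2 in 6 cells and 50 of Col3a1 in 4. The arch endothelial level was 277 against 74 in arch lymphocytes and red cells for Col1a2, 121 against 93.4 for Col3a1 and 37.4 against 27.3 for Col1a1. The part of such background in the arch difference was not tested.

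The share of cells with a UMI followed the levels. Col1a2 was seen in 21.2%, 22.8% and 79.5% of intimal endothelial cells, and in 7.28%, 8.8% and 39.2% after each cell was thinned to 2000 UMIs. In arch T-cell-like cells, at a median of 4364 UMIs against 8395 in arch endothelium, the thinned share for Col1a2 was 16.7%. For Col3a1 the thinned shares were 3.89%, 3.82% and 18.5% in endothelium and 16% in arch T-cell-like cells. Markers of other cell types moved the same way. All 10 fibroblast markers were above 0 in every endothelial sum, and together stood at 1800, 2150 and 2640 CPM in descending a, descending b and arch endothelium, and at 36400 to 44000 in fibroblasts. All 9 smooth muscle markers were above 0 too and stood at 210, 177 and 635 in intimal endothelium. The 8 macrophage markers stood at 97.2, 72.5 and 219 (all above 0) and the 8 mesothelial markers at 115, 127 and 195 (5, 2 and 8 above 0). Their part in the arch difference was not tested. In the endothelial cells with no UMI of Dcn, Lum, Dpt or Pdgfra (299, 256 and 91 cells), the arch remained higher for Col1a2 (2.98), Col1a1 (3.07), Col3a1 (2.56), Col5a2 (1.09) and Col4a4 (1.07), and lower for Col8a1 (-1.86). In those cells 5 of 14 collagen genes tested were higher and 1 lower by edgeR, where 1.49% and 1.23% of all genes were. Col23a1 (0.09), Col5a1 (0.46), Col14a1 (0.68), Col6a1 (0.95), Col18a1 (1.32) and Col4a3 (1.36) fell short there.

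Several other endothelial collagens stood further above the lymphocytes and red cells of the arch. Col5a2 stood at 100 and 110.3 CPM in the descending libraries and 232 in the arch (log2 fold change 1.21 ± 0.15), with 48.2 in arch lymphocytes and red cells. Col4a4 stood at 76.7 and 73.3 against 172 (1.26 ± 0.15, edgeR adjusted p = 5.6e-07), with 19.4 in those lymphocytes and red cells, and Col4a3 at 19.8 and 20 against 42.8 (1.17 ± 0.16). Col18a1, the source of endostatin, stood at 18.1 and 15.7 against 35.1 (1.12 ± 0.17), with 7.91 in them. In these 4 genes the descending values lay close together and the arch value was about double. Col23a1 (53.3 and 57.5 against 82, 0.64 ± 0.15), Col5a1 (29 and 35.1 against 55.6, 0.87 ± 0.15) and Col4a5 (6.15 and 7.47 against 14.5, 1.17 ± 0.26) were also higher. Col6a1 (1.71 ± 0.29), Col6a2 (1.83 ± 0.35), Col6a3 (1.84 ± 0.36) and Col14a1 (1.07 ± 0.18) were called too, and arch endothelium held 12 CPM of Col6a1, 8.33 of Col6a2 and 32.9 of Col14a1 where arch lymphocytes and red cells held 12.2, 13.7 and 33.1. Without descending a or b the log2 fold change of Col6a3 was 2.72 or 1.34. Col4a1 (116, 125 and 126, 0.13 ± 0.16) and Col4a2 (50.8, 47.6 and 53.8, 0.20 ± 0.16) did not pass the test.

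Col8a1 was the 1 collagen gene lower in arch endothelium. It stood at 87.1 and 52.1 CPM in the descending libraries and at 13.2 in the arch (log2 fold change -2.33 ± 0.23, edgeR adjusted p = 4.67e-08), and without descending a or b the log2 fold change was -1.91 or -2.66. The descending values differed from each other, and both lay above the arch value. Endothelial cells fell into 4 intimal clusters of unequal share in the libraries, named here by a leading gene. In the Adra2a cluster, which held 664, 522 and 12 cells, Col8a1 stood at 144, 91.9 and 33.4. In the Ahsg cluster, with 132, 140 and 388 cells, it stood at 33.6, 36.6 and 15.4, and in the Serpina1b cluster, with 79, 102 and 758 cells, at 52, 35.3 and 10.8. The arch was lowest in each of these clusters, and in the Nkx2-3 cluster (588, 525 and 91 cells) Col8a1 stood at 36, 22.3 and 18.5. The arch was thus the lowest library in all 4. Its Adra2a value rests on 12 cells and is no higher than the floor of 3 counts, and the Adra2a and Nkx2-3 clusters were not tested. The test within the Ahsg cluster (-1.11) and the Serpina1b cluster (-1.90, edgeR adjusted p = 1.76e-07) passed as well. Within those clusters Col1a2 was higher in the arch by 2.06 and 1.86 on the log2 scale and Col4a4 by 1.06 and 0.95. Within the Ahsg cluster 9 of 17 collagen genes tested were higher in the arch and 1 lower, where 3.09% and 2.76% of all genes were. Within the Serpina1b cluster 7 of 13 were higher and 1 lower, where 2.71% and 2.38% of all genes were.

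In fibroblasts, the young arch was set against the aged descending aorta in the same way. Of the genes tested, 5 of 7 fibrillar, 4 of 5 type VI and 3 of 6 type IV genes were higher in the arch, and 0 of 3 fibril-associated genes passed the test. When fibroblasts were clustered apart, the 2 groups sat in different subgroups: 416 of 435 arch cells were in an unnamed subgroup with 19 and 22 descending cells, and 288 and 588 descending cells were in a Clec3b type with 4 arch cells. Over all fibroblasts, of 25 collagen genes tested, 13 were higher and none lower by edgeR, where 1.97% of all genes were higher and 1.12% lower. At an unadjusted p of 0.05, 16 were higher and 1 lower. DESeq2 called 3 higher (Col1a1, Col1a2 and Col3a1) and none lower. The median log2 fold change was 0.87 over the collagen genes and -0.01 over all genes. Of the 35 collagen-handling genes tested, edgeR called none, with 7 higher and 3 lower at an unadjusted p of 0.05. The 9 smooth muscle markers stood together at 119, 78.4 and 366 CPM in these fibroblasts, with 8 of 9 above 0 in descending a and all in the others. The 8 macrophage markers stood at 109, 83.5 and 233 (8, 7 and 8 above 0) and the 8 mesothelial markers at 34.6, 22.8 and 79.1 (5, 2 and 8 above 0). The part of these in the result was not tested.

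Col3a1 stood at 802 and 780.0 CPM in descending fibroblasts and at 2291 in the arch (log2 fold change 1.55 ± 0.16, edgeR adjusted p = 1.16e-05). Col1a1 stood at 519.6 and 618 against 1614 (1.52 ± 0.18) and Col1a2 at 1239 and 1258 against 2842 (1.20 ± 0.15). In each gene the arch value was more than double either descending value. Among the rest, Col5a1 (0.84 ± 0.19), Col5a2 (0.71 ± 0.19), Col6a1 (0.82 ± 0.18), Col6a2 (0.87 ± 0.19), Col6a3 (1.02 ± 0.21) and Col6a6 (1.99 ± 0.47) were higher. So were the type IV genes Col4a1 (0.85 ± 0.21), Col4a4 (1.14 ± 0.23) and Col4a5 (1.87 ± 0.28), and Col15a1 (1.83 ± 0.42). Col4a5 stood at 10.3 and 8.86 in the descending libraries and 34.2 in the arch. Without descending a or b, Col15a1 had a log2 fold change of 2.55 or 1.14 and Col6a6 of 2.51 or 1.44. Col14a1 stood at 924, 947 and 1013 (0.13 ± 0.17, edgeR adjusted p = 0.842) and Col12a1 at 63.3, 62.6 and 77.2 (0.31 ± 0.20), values near each other in the 3 libraries. Fibroblasts with a leading gene of Dact2 and those led by Cilp were tested apart, and Col1a1 (1.11 and 2.43), Col1a2 (0.90 and 1.85) and Col3a1 (1.23 and 2.43) were higher in the arch within each. Within the Dact2 cluster 6 of 22 collagen genes tested were higher and none lower by edgeR (14 and 0 at an unadjusted p of 0.05), where 1.15% and 0.664% of all genes were. Within the Cilp cluster 10 of 21 were higher and none lower by edgeR (11 and 1 at an unadjusted p of 0.05), where 1.09% and 0.887% of all genes were.

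**Figure D3:**
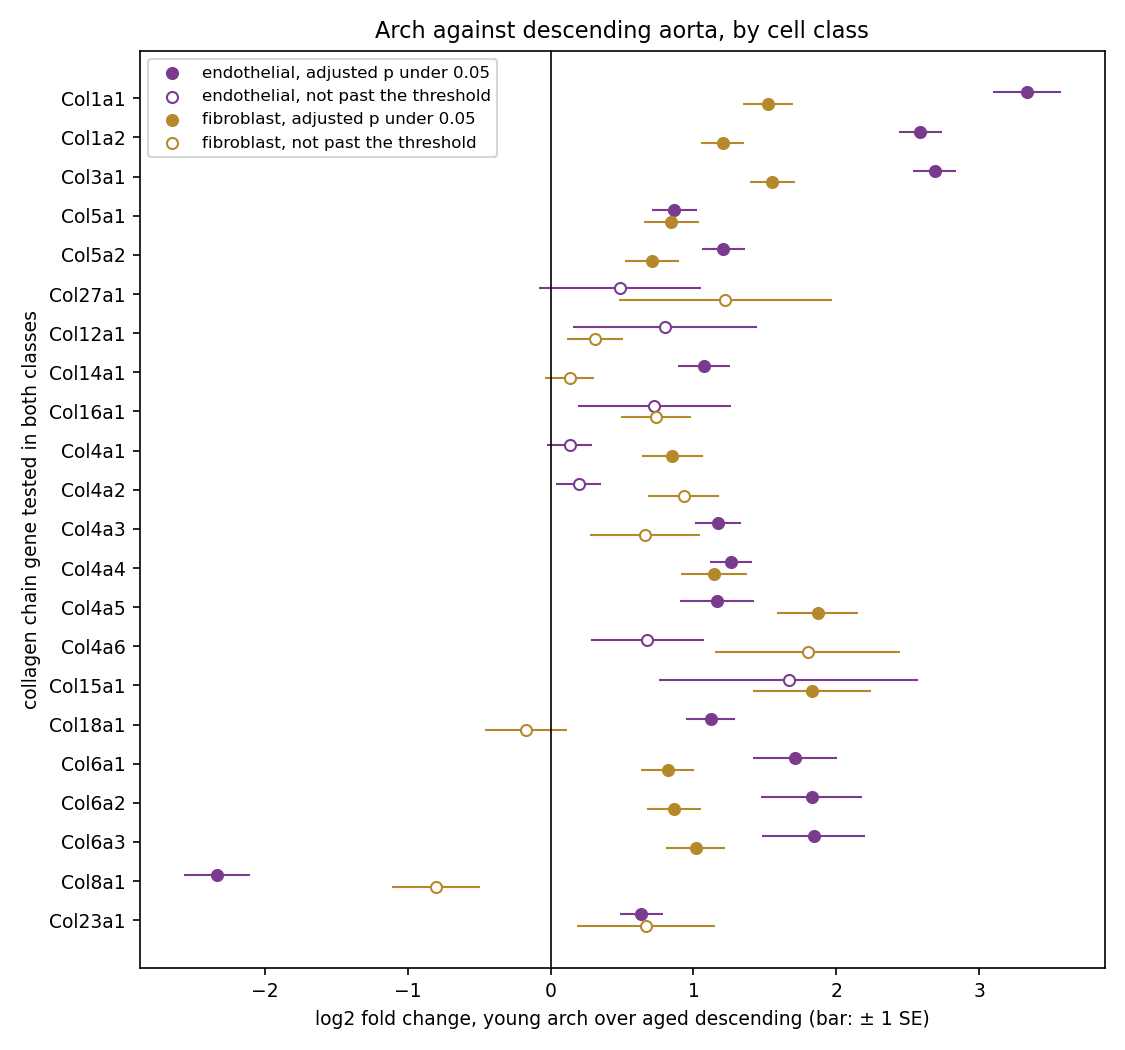
Log2 fold change of young arch over aged descending aorta (points, bars ± 1 SE of the fit) for the collagen genes tested in both classes; filled points passed an edgeR adjusted p of 0.05. Col1a1, Col1a2 and Col3a1 lie farthest right in endothelium, Col8a1 lies left of 0 in both classes, Col4a1 is filled for fibroblasts alone and Col14a1 for endothelium alone.

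Whether the arch difference was the same in the 2 classes was tested as an interaction, fibroblast minus endothelial. Of 24 collagen genes, 2 had a positive and 7 a negative interaction, where 1.67% and 2.08% of all genes did. The negative ones were Col1a1 (-1.80 ± 0.27, edgeR adjusted p = 1.6e-08), Col1a2 (-1.37 ± 0.25), Col18a1 (-1.30 ± 0.31), Col3a1 (-1.12 ± 0.24), Col6a2 (-0.95 ± 0.28), Col14a1 (-0.93 ± 0.24) and Col6a1 (-0.88 ± 0.26), so the arch excess was larger in endothelium. For Col6a1, Col6a2 and Col14a1 the arch endothelial level was at or below that of arch lymphocytes and red cells, and for Col1a1 and Col3a1 it was less than 1.5 times theirs, as the values above show. Col8a1 (1.48 ± 0.32) and Col4a1 (0.74 ± 0.21) had a positive interaction. DESeq2 called 3 negative and none positive, and at an unadjusted p of 0.05 edgeR gave 10 and 4. The median was -0.46 over the collagen genes and -0.01 over all genes. Of 36 collagen-handling genes, 6 had a negative interaction, among them Pcolce (-1.20) and Ddr2 (-1.43), and none a positive one by edgeR (1 at an unadjusted p of 0.05).

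The ratio of UMIs of the 2 type I chain genes also differed between classes. This compares RNA, and the chains within a molecule were not measured. Col1a2 UMIs per Col1a1 UMI were 2.38 (95% interval 2.21 to 2.57), 2.04 (1.93 to 2.15) and 1.76 (1.70 to 1.83) in intimal fibroblasts. In endothelium the ratio was 16.2 (11.1 to 24.4), 10.1 (7.45 to 14.1) and 7.41 (6.71 to 8.19). Arch lymphocytes and red cells gave 2.71 (1.85 to 4.04) and adventitial endothelium 1.29 (0.656 to 2.60). The intimal endothelial intervals lie above all of these.

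Adventitial fibroblasts were compared with those of the aged descending intima, both aged by their titles. Layer and library cannot be told apart here. Adventitial fibroblasts carried more Col4a1, Col4a2, Col15a1 and type V and type VI collagen, and less Col4a3, Col4a4, Col12a1 and Col14a1. Most of the compared cells sat in different clusters: 689 adventitial fibroblasts were in a cluster led by Cxcl14 with 0 descending cells and 525 in a cluster led by Ptx3 with 2. Of 25 collagen genes tested, 14 were higher and 4 lower, where 13.4% of all genes were higher and 9.47% lower. The median log2 fold change was 0.58 over the collagen genes and -0.01 over all genes. DESeq2 called 7 higher and 1 lower. By family, 5 of 7 fibrillar and 5 of 5 type VI genes were higher, and of 6 type IV genes 2 were higher and 2 lower. Markers of other cell types were also higher in adventitial fibroblasts, with summed levels of 109, 83.5 and 470 CPM for 8 macrophage markers (descending a, descending b and adventitia), 34.6, 22.8 and 125 for 8 mesothelial markers, and 119, 78.4 and 192 for 9 smooth muscle markers. All of them were above 0 in the adventitial sum. Their part in the result was not tested.

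Col15a1, a basement-membrane-zone collagen, stood at 7.03 and 2.53 CPM in descending fibroblasts and 232 in the adventitia (log2 fold change 5.91 ± 0.28, edgeR adjusted p = 4.09e-11). Col4a1 stood at 44.9 and 41.1 against 520.1 (3.76 ± 0.19) and Col4a2 at 16.8 and 18.3 against 222 (3.80 ± 0.20). For all 3 the adventitial value was more than 10 times either descending value. Col27a1 stood at 2.16 and 0.949 against 15 (3.54 ± 0.50), Col5a3 at 11.4 and 5.69 against 65.8 (3.21 ± 0.27) and Col6a3 at 47 and 38.9 against 166 (2.12 ± 0.19). Col6a2 stood at 142 and 138 against 319 (1.36 ± 0.18) and Col6a1 at 211 and 211 against 424 (1.17 ± 0.18). The adventitia was highest of the 3 in each of these. Col6a6 (1.89 ± 0.44), Col8a1 (0.97 ± 0.24), Col3a1 (0.68 ± 0.16), Col5a1 (0.58 ± 0.19) and Col5a2 (0.55 ± 0.19) were higher as well. Without descending a or b, the log2 fold change was 6.63 or 5.21 for Col15a1, 4.07 or 2.95 for Col27a1, 2.41 or 1.33 for Col6a6 and 1.28 or 0.64 for Col8a1. Col6a5 had 36 UMIs in adventitial fibroblasts and 1 in the descending ones, a ratio of 36.2 with a counting interval of 6.10 to 1470.

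Col14a1, a fibril-surface collagen, stood at 924 and 947 CPM in descending fibroblasts and 332 in the adventitia (log2 fold change -1.33 ± 0.18, edgeR adjusted p = 3.03e-05). Col12a1 stood at 63.3 and 62.6 against 30.5 (-0.88 ± 0.21), Col4a4 at 26.5 and 38 against 10 (-1.56 ± 0.29) and Col4a3 at 7.03 and 11.4 against 2.21 (-1.95 ± 0.49). The adventitial value lay below both descending values in all 4 genes. Col1a1 (519.6, 618 and 582) and Col1a2 (1239, 1258 and 1218) did not pass the test, with log2 fold changes of 0.19 ± 0.18 and 0.13 ± 0.16. In the Cilp cluster alone (99 and 90 descending against 190 adventitial cells), 11 of 21 collagen genes tested were higher and none lower by edgeR (15 and 1 at an unadjusted p of 0.05), where 4.97% and 2.88% of all genes were. There Col12a1 stood at 48.9 and 41.3 against 106, higher in the adventitia (1.33, edgeR adjusted p = 0.00429), the opposite of its direction over all fibroblasts. The Dact2 cluster held 26 adventitial cells with 0 to 2 UMIs each of Col15a1, Col4a1, Col5a3, Col6a6 and Col8a1, so no direction was read there. None of 22 collagen genes passed by edgeR in it (0 higher and 1 lower at an unadjusted p of 0.05), where 0.452% of all genes were higher and 0.289% lower. Over all fibroblasts, 9 of 35 collagen-handling genes were higher in the adventitia and 4 lower, where 13.4% and 9.47% of all genes were. Lox (1.73), P4ha1 (1.26) and Plod1 (1.31) were among the higher ones and Pcolce2 (-1.01) among the lower.

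Within the adventitia, fibroblasts split into a Pi16 type (807 cells), a Smoc2 type (454 cells) and a matrix type (160 cells). These are from 1 library, so the values below have no replicate check, and only counting intervals apply. The Smoc2 type had the highest levels of Col15a1, Col4a1 and Col5a3. Col15a1 stood at 62.9, 558 and 229 CPM in the Pi16, Smoc2 and matrix types, Col4a1 at 309, 993 and 370.2, and Col5a3 at 31.1, 139.8 and 44.3. The matrix type stood out for Col8a1, at 19.2, 4.64 and 321, and for Col12a1, at 28, 11.3 and 97.4. Col14a1 was lowest in the Smoc2 type, at 483, 41.1 and 353. Type I collagen differed far less, with Col1a1 at 542, 545 and 811 and Col1a2 at 1120.5, 1206 and 1656.

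**Figure D4:**
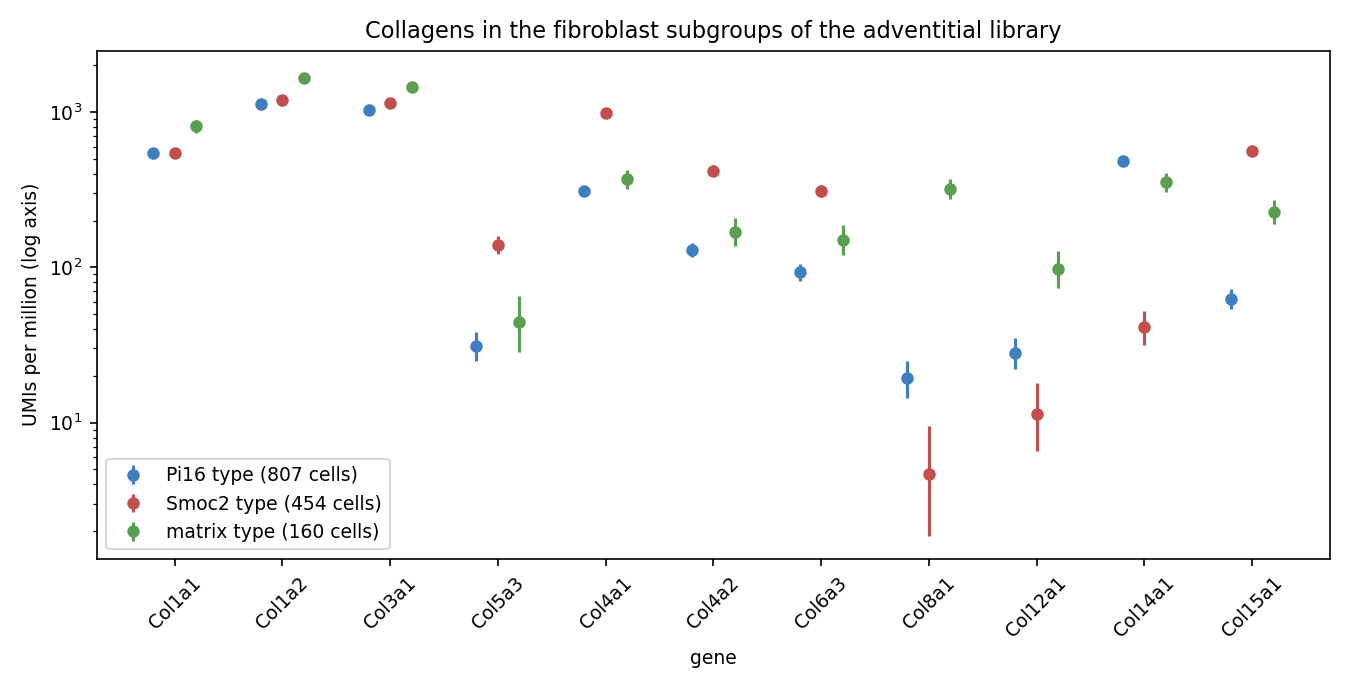
Levels (CPM, log axis) of 11 collagen genes in the 3 fibroblast types of the adventitial library, with exact 95% Poisson intervals of the counts. Col15a1 and Col4a1 are highest in the Smoc2 type, Col8a1 and Col12a1 in the matrix type, and Col1a1, Col1a2 and Col3a1 lie close together.

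The Cilp and Dact2 fibroblast clusters were compared across the 4 libraries with the library as a block, a comparison added after the clusters were seen. Of 17 collagen genes tested, 5 were higher in the Cilp cluster and 1 lower, where 6.32% and 4.82% of all genes were. Col8a1 stood at 53.8, 41.3, 20.4 and 318 CPM in the Cilp cluster and 30.5, 19.8, 14.4 and 15.4 in the Dact2 cluster (log2 fold change 1.37 ± 0.31, edgeR adjusted p = 0.00567). Col4a1 stood at 88.1, 77.2, 102 and 294 against 32.6, 36.3, 68.6 and 15.4 (1.26 ± 0.25, edgeR adjusted p = 0.00182). Both genes were higher in the Cilp cluster in each library. The adventitial Dact2 values came from 26 cells and lay below the floor of 3 counts (23.2 CPM), so the size of that difference was not read. Col4a2 (1.15 ± 0.26), Col16a1 (0.96 ± 0.24) and Col6a3 (0.72 ± 0.18) were also higher, and Col14a1 was lower (670.2, 609, 854 and 457 against 996, 990.2, 1062 and 765, -0.53 ± 0.12). Without the library block no collagen gene passed by edgeR, and DESeq2 called 3 higher and 1 lower. With 1 library left out, 3 to 6 were higher and 0 to 2 lower: Col16a1 fell short without descending a, descending b or the arch, Col6a3 without descending b or the arch, and Col14a1 without descending b. Of 31 collagen-handling genes, 6 were higher in the Cilp cluster, among them Lox (1.61), and 4 lower, among them Loxl2 (-1.26). The cells did not split into these 2 clusters when collagen genes were used in clustering or when doublets were kept.

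Endothelium of the adventitial library, nearly all of it (301 of 303 cells) a cluster led by the capillary gene Gpihbp1, was set against descending intimal endothelium. It was rich in Col4a1, Col4a2 and Col15a1 and poor in Col4a3, Col4a4, Col5a2 and Col23a1. Of 23 collagen genes tested, 7 were higher and 8 lower, where 17.9% and 17.4% of all genes were. DESeq2 called 5 higher and 6 lower. The median was 0.08 over the collagen genes and -0.14 over all genes, so the typical gene itself sat slightly below 0. Of 37 collagen-handling genes, 5 were higher, among them Plod1 (1.98) and P4ha1 (1.77), and 12 lower, among them Lox (-3.69). In this endothelium the 8 macrophage markers stood together at 502 CPM against 97.2 and 72.5 in descending a and b, and the 9 smooth muscle markers at 378 against 210 and 177, all above 0. The 10 fibroblast markers stood at 1240 against 1800 and 2150, and the 8 mesothelial markers at 75 against 115 and 127. Their part in the result was not tested.

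Col4a1 stood at 116 and 125 CPM in descending endothelium and 639.7 in the adventitial cells (log2 fold change 2.51 ± 0.15, edgeR adjusted p = 2.86e-13), Col4a2 at 50.8 and 47.6 against 479.5 (3.39 ± 0.16) and Col15a1 at 0.288 and 0.113 against 46.3 (7.80 ± 0.59, from 3, 1 and 50 UMIs, and 8.59 or 7.36 without descending a or b). Each lay far outside the descending pair. Col4a4 had 2 UMIs among adventitial endothelial cells, 1.85 CPM against 76.7 and 73.3, a ratio of 0.0246 with a counting interval of 0.00298 to 0.0892. Col23a1 also had 2 UMIs, a ratio of 0.0335 (0.00406 to 0.121). Col4a3 and Col4a5 had none and, against the floor of 3 counts in the adventitial sum, were at least 7.16-fold and 2.43-fold lower. Col5a2 (100 and 110.3 against 8.33, -3.55 ± 0.31), Col5a1 (-3.00 ± 0.46) and Col8a1 (-1.81 ± 0.35) were lower too. Col1a1 (2.12 ± 0.48), Col3a1 (0.91 ± 0.26), Col6a1 (2.13 ± 0.48) and Col6a2 (2.15 ± 0.61) were higher and Col1a2 lower (-1.14 ± 0.27), and adventitial lymphocytes and red cells held 7.92 of Col1a1, 22.6 of Col3a1, 10 of Col6a1 and 15.8 of Col1a2 where the endothelium held 15.7, 34.3, 15.7 and 20.4. The part of such background in these calls was not tested. With doublets kept, Col1a2 no longer passed (-0.23). In adventitial endothelial cells with no UMI of the 4 fibroblast genes, 2 of 14 collagen genes tested were higher (Col4a1 and Col4a2) and 7 lower, where 11.8% and 12% of all genes were.

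The head-to-head type IV pairs, whose start windows are printed above, were read across all classes. Among whole classes, Col4a1 and Col4a2 both had their highest level in pericytes, at 856 (95% interval 757 to 966) and 536 (457 to 623) CPM. The Smoc2 subgroup of adventitial fibroblasts stood higher than pericytes for Col4a1. Adventitial endothelium lay within the pericyte interval for Col4a2. In mesothelium Col4a1 and Col4a2 stood at 51.3 and 36.4 in the arch and 46.7 and 15.6 in the adventitia. Col4a1 UMIs per Col4a2 UMI were 2.28, 2.63 and 2.35 in intimal endothelium and 2.68, 2.24, 2.29 and 2.35 in the fibroblasts of the 4 libraries. Adventitial endothelium stood apart at 1.33 (1.19 to 1.5), and pericytes at 1.60 (1.31 to 1.95), below the intervals of intimal endothelium (2.06 to 2.53, 2.35 to 2.95 and 2.14 to 2.58). Col4a4 UMIs per Col4a3 UMI were 3.88, 3.66 and 4.01 in intimal endothelium and 3.77, 3.33, 4.80 and 4.55 in fibroblasts, with overlapping intervals. Arch mesothelium had 128 of Col4a4 and 17.1 of Col4a3, and adventitial mesothelium 18.2 and 2.59. Col4a4 had 0 UMIs in pericytes, Schwann cells and adventitial smooth muscle, which allows up to 11.8, 56.1 and 59 CPM, where Col4a1 stood at 856, 380.1 and 319.8.

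Col4a5 and Col4a6, the X-linked pair, were highest in smooth muscle, at 83.9 (38.4 to 159) and 46.6 (15.1 to 109) among arch cells and 48 (9.89 to 140) and 64 (17.4 to 164) among adventitial ones. These rest on 17 and 13 cells and on 3 to 9 UMIs each. Col4a5 UMIs per Col4a6 UMI were 2.37, 2.28 and 3.26 in intimal endothelium and 3.80, 4.67, 4.43 and 4.55 in fibroblasts, with overlapping intervals.

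**Figure D5:**
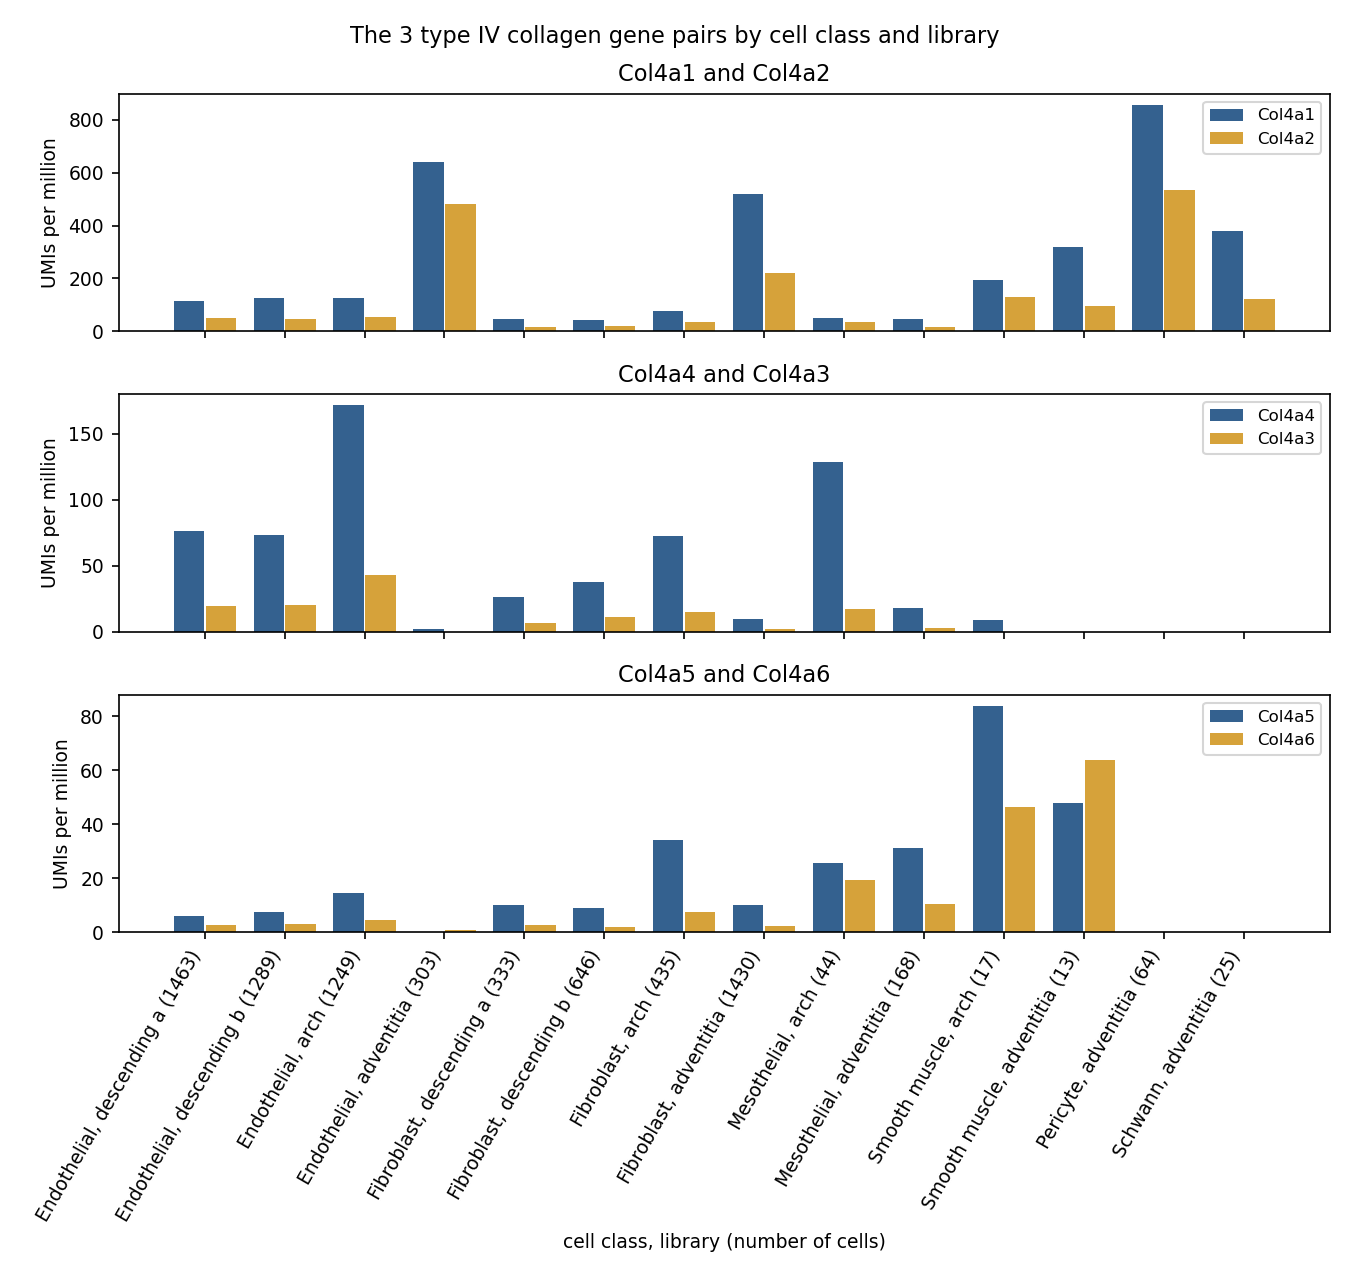
Levels (CPM, linear axes from 0) of the 3 head-to-head type IV gene pairs in each class and library with at least 10 cells (cell numbers in parentheses). The Col4a1 and Col4a2 bars are tallest in adventitial endothelium, adventitial fibroblasts and pericytes, the Col4a4 and Col4a3 bars in intimal endothelium and arch mesothelium, and the Col4a5 and Col4a6 bars in smooth muscle.

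Smooth muscle, mesothelial, pericyte and Schwann classes came from too few libraries for a test, and their values are given with counting intervals. Smooth muscle held the highest level of Col18a1, at 625 (484 to 793) CPM among arch cells and 399.7 (259 to 590.0) among adventitial ones. Endothelial, fibroblast and mesothelial sums of these 2 libraries held at most 99.4, and Schwann cells of the adventitia 213 on 14 UMIs. Col15a1 stood at 224 (143 to 333) in arch smooth muscle and 48 (9.89 to 140) in the adventitial one. Col1a2 stood at 755 and 703, Col3a1 at 485 and 528, Col1a1 at 317 and 352 and Col4a1 at 196 and 319.8, so the fibrillar genes lay below every fibroblast sum of the same libraries. The 5 collagen genes whose class mean was highest in smooth muscle were Col15a1, Col18a1, Col4a5, Col4a6 and Col6a2, the last at 196 and 304. Smooth muscle was averaged over the arch and adventitia alone, and fibroblasts over all libraries. Fibroblasts held more Col6a2 than smooth muscle in each of these libraries, and more Col15a1 in the adventitia.

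Mesothelial cells, the lining of the outer surface, held Col3a1 at 1168 (1072 to 1270) CPM among arch cells and 711 (663 to 761) among adventitial ones, and Col1a2 at 644 and 529. Col1a1 stood at 287 and 368, Col14a1 at 334 and 160.0 and Col6a1 at 175 and 170.3. All 5 lay below the fibroblasts of the same library. Col18a1 stood at 21.4 (10.3 to 39.3) and 99.4 (82.1 to 119), and the intervals did not overlap. Col6a5 had 27 UMIs in adventitial mesothelium, 23.3 CPM (15.4 to 34), and none in the arch cells, which allows up to 7.89. Col1a2 UMIs per Col3a1 UMI were 0.551 (0.477 to 0.636) and 0.745 (0.669 to 0.828), below the 1.08 (1.04 to 1.12) to 1.61 (1.53 to 1.7) of the 4 fibroblast sums.

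Pericytes, the mural cells of small vessels, were the only class with more than a few UMIs of Col13a1, a transmembrane collagen, with 26 of 35 UMIs, at 83.4 (54.5 to 122) CPM against 3.7 (1.01 to 9.48) in adventitial endothelium. Col5a3 (70.6), Col6a3 (138) and Col8a1 (64.1) also had their highest class mean in pericytes, which came from the adventitia alone. Within that library fibroblasts held more Col6a3 than pericytes, the Smoc2 type more Col5a3 and the matrix type more Col8a1. Endothelium of descending a held more Col8a1 too. Schwann cells, the glia of nerves, had the highest class mean for Col5a2 (167, 83.5 to 299), Col16a1 and Col27a1 (60.8 each, 16.6 to 156) and Col20a1 (30.4, 3.68 to 110), on 11 UMIs or fewer each. Col5a2 stood higher in arch endothelium and arch fibroblasts than in these Schwann cells. Among the rarely seen genes, Col9a1 had 45 UMIs, of which 44 lay in endothelium at 0.672, 1.92, 1.65 and 0 CPM, and Col28a1 had 6, of which 5 lay in adventitial endothelium.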

How the data were processed

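Single-cell RNA was measured in 4 libraries. The authors deposited UMI counts for each gene in each barcode, made with Cell Ranger 2.1.2 on mm10, per the submitters' processing notes. Libraries used the v2 kit of 10x Genomics. The annotation release and the strand setting are not given in the sources used here. The files held 2095, 2178, 2187 and 9347 barcodes and 27998 genes, of which 27645 matched a symbol in the reference table. Barcodes were kept from 200 detected genes upwards and up to a mitochondrial share of 10% (2030, 2132, 2172 and 8497). Scrublet's automatic threshold called 6, 24, 24 and 2 doublets, which is too few for the adventitia. The cells removed (44, 37, 50 and 647) were those with the highest scores at a rate of 0.8% per 1000 barcodes. Cells were clustered with scanpy 1.11.5 (2000 variable genes without collagens, 30 components, 15 neighbours, Leiden resolution 1.0, leidenalg 0.10.2) and clusters were named from marker lists with at least 3 markers. Of 31 clusters 27 were named. Names describe RNA and were rebuilt here.

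Raw counts were summed per library and class, for classes of at least 20 cells, and tested over all genes with edgeR 4.0.16 (TMM, filterByExpr, quasi-likelihood test, Benjamini-Hochberg) in R 4.3.3. DESeq2 1.42.0 was an alternative. The test was checked on simulated data. The labels give 6 mice for each descending library without saying that the pools were separate, so the spread between libraries may be technical. The arch and adventitia fits had 1 residual degree of freedom, with 25.1 (endothelium) and 16.7 (fibroblasts) prior degrees of freedom. Their p-values thus rest mostly on the spread between genes. The prior was infinite for the interaction and within the Ahsg, Serpina1b and Cilp clusters. It was also infinite for the arch and adventitia tests in endothelial cells with no UMI of Dcn, Lum, Dpt or Pdgfra. In these fits p-values rest on the trend over genes alone. Intervals are exact 95% Poisson, binomial or ratio-of-counts intervals. Positions are from GENCODE M21 and promoters from RefSeq, both GRCm38. Named genes were the 5 with the highest mean level in endothelial, fibroblast, mesothelial and smooth muscle cells, those past the threshold (at most the 15 largest per comparison) and those highest in another class. The Cilp and Dact2 cluster comparison and the tests within single clusters were added after the clusters were seen. The members and lists were chosen with earlier results of these data known.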

Additional observations from a re-analysis of the deposited data

Results flagged for a closer look

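The arch difference of 9 collagen genes differed between fibroblasts and endothelium by the interaction test (fibroblast minus endothelial, edgeR adjusted p under 0.05 over all genes). The log2 interactions were -1.80 for Col1a1, -1.37 for Col1a2, -1.30 for Col18a1, -1.12 for Col3a1, -0.95 for Col6a2, -0.93 for Col14a1 and -0.88 for Col6a1, and 0.74 for Col4a1 and 1.48 for Col8a1. Of all genes tested, 1.67% had a positive and 2.08% a negative interaction. DESeq2 called 3 of the collagen genes negative and none positive. For Col6a1, Col6a2 and Col14a1 the arch endothelial level was at or below that of arch lymphocytes and red cells. The interaction rests on 1 arch library.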

How the results depend on the processing

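Of 838 values of single genes under an alternative setting, 712 were unchanged, 91 fell short of the threshold, 27 moved (values without a test) and 8 reversed. Unchanged means the same direction and side of the threshold, or a log2 value that moved little where no test was possible. The reversals were in adventitial against descending fibroblasts. The Dact2 cluster alone held 26 adventitial cells, with 0 to 2 UMIs of each gene named next (5 of Col6a3), so the fitted values there depend on the prior count, are no bounds and do not measure a reversal. They were -5.41 for Col15a1, -1.24 for Col4a1, -0.21 for Col5a3, -0.13 for Col6a3, -4.28 for Col6a6 and -0.72 for Col8a1, none past the threshold. In the Cilp cluster alone the log2 fold change became -0.59 for Col6a6 (5 adventitial UMIs, short of the threshold) and 1.33 for Col12a1, and the cause was not tested.

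Counts of collagen genes called changed by more than 1.5 times as follows. Without the library as a replicate block, 3 were lower in fibroblasts than endothelium, and none was higher or lower in the Cilp against the Dact2 cluster (5 and 1 with the block). Adding the adventitia left 3 lower in fibroblasts. DESeq2 called 5 higher in arch endothelium and 3 in arch fibroblasts. For the adventitia it called 7 higher and 1 lower in fibroblasts, for the interaction 0 positive and 3 negative, and for the Cilp cluster 3 higher. Without a filter on low counts, 11 were higher in adventitial endothelium and 8 in the Cilp cluster. In endothelial cells without fibroblast UMIs, 5 were higher in the arch and 2 in the adventitia. Within single clusters, 9 (Ahsg) and 7 (Serpina1b) were higher in arch endothelium, and 6 (Dact2) in arch fibroblasts. For adventitial fibroblasts, 0 were higher and 0 lower in the Dact2 cluster and 0 lower in the Cilp cluster. With doublets kept, 1 was lower in arch fibroblasts. Leaving out 1 library gave 3 to 6 higher and 0 to 2 lower in the Cilp cluster, where Col16a1 fell short without descending a, descending b or the arch, Col6a3 without descending b or the arch and Col14a1 without descending b, and 14 higher and 5 to 6 lower for fibroblasts against endothelium. The arch, adventitia and interaction tests have no residual degrees of freedom without a descending library, so only their log2 values were recomputed.

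The collagen share of UMIs was 0.0659% in descending, 0.134% in arch and 0.136% in adventitial endothelium, and 0.44%, 0.922% and 0.564% in fibroblasts. Thinning to 2000 UMIs gave 0.0639%, 0.128% and 0.121% in endothelium and 0.434% and 1.0% in descending and arch fibroblasts. With doublets kept, adventitial endothelium held 0.126% and fibroblasts 0.431%, 0.904% and 0.545%. No paired analysis was possible because arch, adventitia and descending groups have fewer than 2 numbers in common. The planned matrix against Clec3b subgroup test was not run, since no library held 20 cells of both. The 18 genes in no test had at most 58 UMIs each in the analysed cells.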
